A study of Homo sapiens with 38 samples.

Results

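The DPPA2 antibody and 2 Flag antibodies, all directed at the same introduced protein, Flag-tagged DPPA2, were compared in H1299 lung cancer cells. The libraries were taken by their labels: replicates 1 and 2 of the mouse DPPA2 antibody, of a mouse monoclonal Flag antibody (Flag monoclonal) and of a rabbit superclonal Flag antibody (Flag superclonal). They make up 6 of the 38 libraries of the series, 30 of which have lists of enriched regions and 8 of which are IgG controls. In replicate 1, domains with many reads were found by all 3 antibodies, and sites found by a single antibody held few reads. Of 11790 sites found in both DPPA2 antibody libraries, 368 (3.12%) touched no region of any Flag library. Of 8650 sites found in both libraries of a Flag antibody, 123 (1.42%) touched no region of either DPPA2 antibody library.

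DPPA2 and DPPA4 are small nuclear proteins of the early embryo that carry a SAP domain, a DNA-binding fold, and work as a pair. In mouse embryonic stem cells they sit at CpG-rich promoters, many of which carry both activating H3K4me3 and repressive H3K27me3. An antibody to the protein itself and an antibody to its tag recognise different epitopes on one molecule, so a region seen by both rests on more than one epitope.

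H1299 is an established human non-small cell lung carcinoma line that does not express DPPA2 or DPPA4 of its own. All 6 libraries came from cells that carried doxycycline-inducible cDNAs for N-terminally Flag-tagged DPPA2 and N-terminally V5-tagged DPPA4, integrated with a PiggyBac transposon, and that were grown with 2 µg/mL doxycycline for 7 days. The cells were a sorted bulk population chosen on the fluorescent markers of the vectors (mVenus for DPPA2, tagBFP for DPPA4), not a clone. Binding was mapped by CUT&RUN, in which antibody-tethered nuclease releases the chromatin around the protein for sequencing. The labels do not say whether replicates were separate cultures, so the p-values reflect only how far these libraries spread, and part of that may be technical. No library without doxycycline was part of the comparison. The IgG control was shared: in domains with identical ends the IgG read counts were equal in 100% of cases among the 4 mouse antibody libraries and between both Flag superclonal libraries. Overlaps between lists that share a control are therefore not fully independent.

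Enriched regions are given as domains, which the EPIC2 program builds by joining enriched bins of 100 bp, and as narrow peaks from the MACS2 program. A domain was kept at a false discovery rate below 0.05 and a log2 fold over IgG above 1. An overlap between 2 lists required 25% of the shorter domain, and domains touched when they had 1 bp in common. A site is a merged region found in both replicates of an antibody, and a promoter is the transcription start site (TSS) ± 1500 bp of a protein-coding gene. Density is the number of library reads per kb of domain.

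Sequence under the peaks is shown for promoters of each kind, since base composition is one of the features in which the kinds of site differed. Each is the run outside annotated untranslated regions within 200 bases centred on the summit of the strongest MACS2 peak, read 5′ to 3′ from the plus strand of GRCh38, with CpG dinucleotides in capitals. SCAF8 (chr6:154733089-154733288, upstream of the gene, 27 CpG) and ELMO2 (chr20:46406441-46406547, within the gene, which runs on the minus strand, 13 CpG) had domains in all 6 libraries. ENSG00000270249 (chr7:102592671-102592870, upstream of its TSS and inside the body of RASA4, 9 CpG) and CCDC125 (chr5:69332518-69332648, within the gene, 5 CpG) had domains in both DPPA2 antibody libraries and in no Flag library. SEM1 (chr7:96709421-96709620, within the gene, 14 CpG) and CFAP58 (chr10:104353564-104353763, upstream of the gene, 12 CpG) had domains in both Flag superclonal libraries and in no DPPA2 antibody library.
SCAF8: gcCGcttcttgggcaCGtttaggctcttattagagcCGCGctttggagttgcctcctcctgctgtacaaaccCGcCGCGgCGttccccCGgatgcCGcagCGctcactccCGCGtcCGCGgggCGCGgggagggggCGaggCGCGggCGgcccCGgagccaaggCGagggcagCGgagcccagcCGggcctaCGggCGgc
ELMO2: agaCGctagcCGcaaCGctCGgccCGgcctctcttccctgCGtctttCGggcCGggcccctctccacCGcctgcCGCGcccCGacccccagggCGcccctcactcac
ENSG00000270249: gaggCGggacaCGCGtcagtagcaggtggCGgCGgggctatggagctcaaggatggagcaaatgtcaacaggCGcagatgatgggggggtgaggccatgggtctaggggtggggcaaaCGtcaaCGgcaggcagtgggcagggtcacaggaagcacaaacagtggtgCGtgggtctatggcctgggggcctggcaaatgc
CCDC125: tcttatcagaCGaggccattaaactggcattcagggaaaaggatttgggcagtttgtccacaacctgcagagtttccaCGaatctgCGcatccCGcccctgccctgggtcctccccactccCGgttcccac
SEM1: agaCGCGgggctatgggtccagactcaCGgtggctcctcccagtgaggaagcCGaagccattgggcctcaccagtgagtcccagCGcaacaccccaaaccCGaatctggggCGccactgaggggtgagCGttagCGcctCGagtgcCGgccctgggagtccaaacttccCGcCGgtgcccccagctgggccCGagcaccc
CFAP58: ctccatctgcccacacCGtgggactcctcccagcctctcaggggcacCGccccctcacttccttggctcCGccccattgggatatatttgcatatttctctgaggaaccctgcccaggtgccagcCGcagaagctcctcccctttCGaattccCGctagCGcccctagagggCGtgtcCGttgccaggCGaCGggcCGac

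The printed windows of the promoters found by all 3 antibodies had a GC content of 74% (SCAF8) and 75.7% (ELMO2). Those of the promoters found by the DPPA2 antibody alone had 63.5% (ENSG00000270249) and 56.5% (CCDC125), and those found by Flag alone 68% (SEM1) and 64% (CFAP58). Single windows overlapped between the kinds: PSMB9, found in all 6 libraries, had 54% and 9 CpG, and CTTNBP2, found by the DPPA2 antibody alone, had 82% and 35 CpG.

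Every antibody gave fewer domains in its second replicate. The DPPA2 antibody gave 34105 domains in replicate 1 and 18054 in replicate 2. Flag monoclonal gave 24177 and 4904, and Flag superclonal 26200 and 13811. Flag monoclonal replicate 2 was the shortest list. On the log2 scale, the number of domains averaged 14.6 ± 0.649 for the DPPA2 antibody (SD, n = 2) and 13.8 ± 1.11 for the Flag antibodies (SD, n = 4), a difference of 0.786 that did not exceed the spread between libraries (exact permutation test, two-sided, p = 0.533, adjusted p = 1 over 2 library values tested). The smallest p this design allows is 0.133. The test did not use replicate number, so the drop from replicate 1 to replicate 2 counts in that spread. Within replicate 1 the difference was 0.438 and within replicate 2 it was 1.13.

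**Figure D1:**
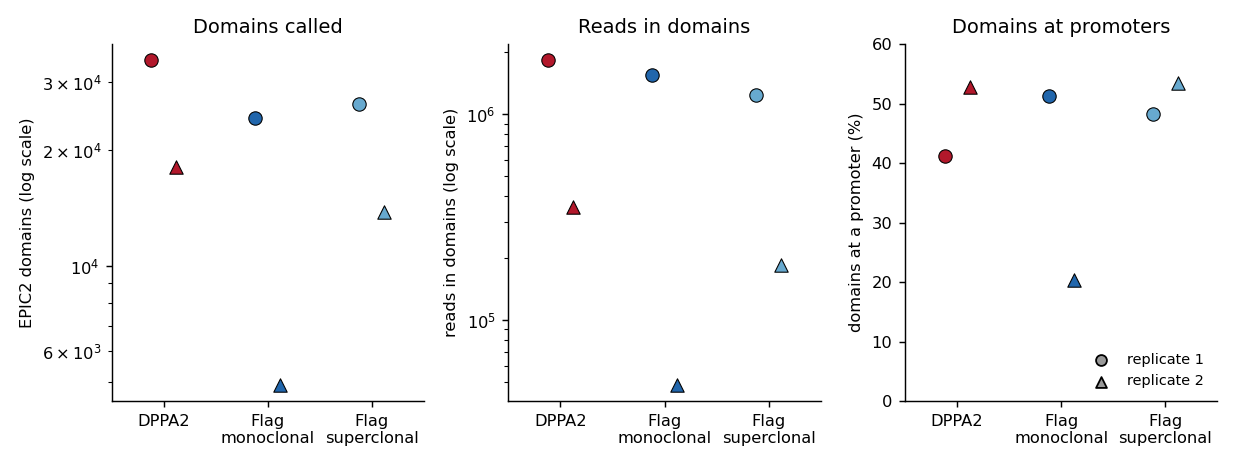
Number of EPIC2 domains, reads in domains (both on log axes) and share of domains at promoters (%) for each of the 6 libraries, DPPA2 antibody on the left, circles for replicate 1 and triangles for replicate 2. Replicate 2 lies below replicate 1 for domains and reads with every antibody, and Flag monoclonal replicate 2 has 4904 domains with 20.3% at promoters.

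The reads in domains were also fewer in the second replicate of every antibody. The DPPA2 antibody domains held 1833333 and 353243 reads in replicates 1 and 2, against 1557329 and 48262 for Flag monoclonal and 1236663 and 184439 for Flag superclonal. Total depth is unknown, since the lists cover enriched regions only. The median domain was 600 and 500 bp wide for the DPPA2 antibody, against 800 and 400 bp for Flag monoclonal and 700 and 400 bp for Flag superclonal. Median density was 34.2 and 26.7 reads per kb for the DPPA2 antibody, against 37.5 and 21.1 for Flag monoclonal and 34.6 and 25 for Flag superclonal. The 3 antibodies therefore gave domains of like density in replicate 1, with lower densities in replicate 2.

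Promoters held a large part of the domains with every antibody. The share was 41.2% and 52.7% for the DPPA2 antibody, against 51.3% and 20.3% for Flag monoclonal and 48.2% and 53.5% for Flag superclonal. The DPPA2 antibody averaged 47 ± 8.16% (SD, n = 2) and the Flag antibodies 43.3 ± 15.5% (SD, n = 4), a difference of 3.62 percentage points that did not exceed the spread (exact permutation test, two-sided, p = 1, adjusted p = 1). Its sign was set by Flag monoclonal replicate 2: without that library the difference was -4.06 points. Within replicate 1 it was -8.58 points and within replicate 2 it was 15.8 points.

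Domains of the 2 Flag antibodies were for the most part contained in the DPPA2 antibody list, and the reverse held less often. In replicate 1, the DPPA2 antibody list overlapped 85.1% of the Flag monoclonal and 80.9% of the Flag superclonal domains, while Flag monoclonal overlapped 60.3% and Flag superclonal 59.3% of the longer DPPA2 antibody list. The 2 Flag antibodies overlapped one another by 75.6% (share of Flag monoclonal domains) and 72.8% (share of Flag superclonal domains). An antibody to the protein thus recovered a larger share of either Flag list than the other Flag antibody did, from a longer list. In replicate 2 the DPPA2 antibody list overlapped 26.8% of Flag monoclonal and 56.8% of Flag superclonal domains, while 7.11% and 40.9% of its own domains were overlapped by Flag monoclonal and Flag superclonal.

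**Figure D2:**
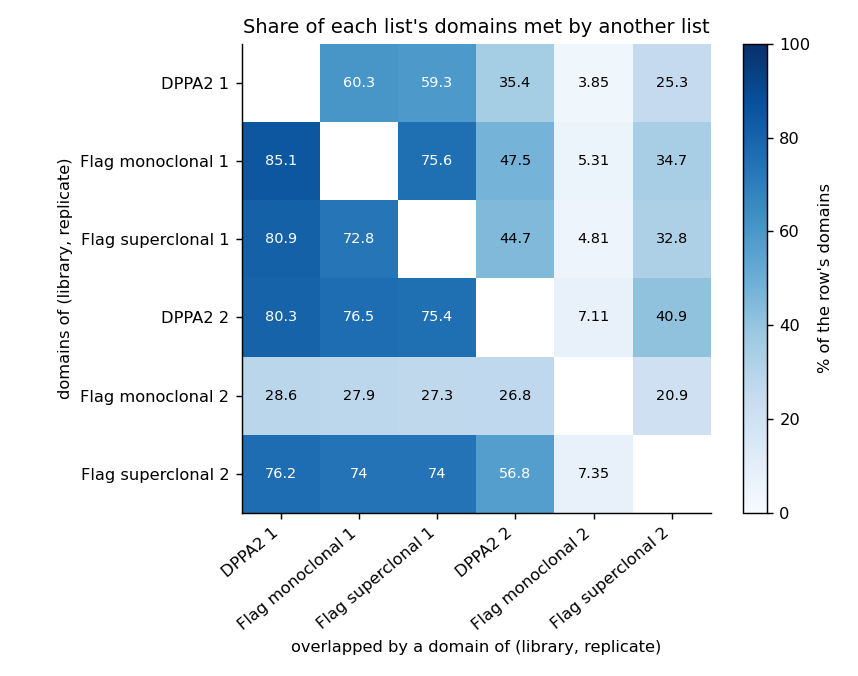
Share (%) of the EPIC2 domains of the library in each row that overlapped a domain of the library in each column by at least 25% of the shorter region, with libraries numbered by replicate. Shares are highest where the column is a replicate 1 library and lowest in the column of Flag monoclonal replicate 2, at 3.85 to 7.35%.

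Requiring both replicates left 11790 DPPA2 antibody sites, 1277 Flag monoclonal sites and 8478 Flag superclonal sites. Flag superclonal overlapped 6791 DPPA2 antibody sites (57.6%, 95% Clopper-Pearson interval 56.7 to 58.5%), and the DPPA2 antibody overlapped 6914 Flag superclonal sites (81.6%, 80.7 to 82.4%). Flag monoclonal overlapped 1206 DPPA2 antibody sites (10.2%, 9.69 to 10.8%), and the DPPA2 antibody overlapped 1173 Flag monoclonal sites (91.9%, 90.2 to 93.3%). These intervals cover counting error only, and the 2 replicates of each share differed by far more than the intervals. With the Flag monoclonal replicate 1 list in place of its consensus, a choice made after the data were seen, 93.9% of DPPA2 antibody sites were overlapped, and the reverse share was 50.1%.

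Narrow peaks gave the same picture in replicate 1. MACS2 called 22342 and 2336 peaks for the DPPA2 antibody, against 14937 and 12 for Flag monoclonal and 19050 and 1961 for Flag superclonal. The DPPA2 antibody overlapped 93.9% of the Flag monoclonal and 82.8% of the Flag superclonal peaks of replicate 1, and 62.3% and 67.6% of its own peaks were overlapped by Flag monoclonal and Flag superclonal. Peaks found in both replicates numbered 2081 for the DPPA2 antibody, 6 for Flag monoclonal and 1752 for Flag superclonal. Of these DPPA2 antibody peaks 41.4% overlapped a Flag superclonal peak, and 49.6% of the Flag superclonal peaks overlapped one of the DPPA2 antibody. By peaks, 4 DPPA2 antibody sites touched no Flag peak and 10 Flag sites touched no DPPA2 antibody peak.

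Whether a domain was seen by the other reagent went with its read count. Among DPPA2 antibody domains of replicate 1 with under 10 reads, 20% overlapped Flag monoclonal and 18.6% overlapped Flag superclonal. At 20 to 49 reads the shares were 88.7% and 88.3%, and at 50 to 99 reads 99.7% and 99.4%. Of the 2080 DPPA2 antibody domains with 200 reads or more, every one was overlapped by both Flag antibodies in replicate 1. In the other direction, the DPPA2 antibody overlapped 51.4% of Flag monoclonal and 45.7% of Flag superclonal domains with under 10 reads. At 20 to 49 reads it overlapped 98.5% and 98.7%, and it overlapped all Flag domains of replicate 1 with 50 reads or more. For DPPA2 antibody domains the shares in replicate 2 were lower: Flag superclonal overlapped 14.5% of DPPA2 antibody domains with under 10 reads, 72.6% of those with 20 to 49 and 89.8% of those with 50 to 99. In the other direction, the DPPA2 antibody overlapped 34.6% of Flag superclonal domains of replicate 2 with under 10 reads and 74% of those with 10 to 19, beside 73.4% in replicate 1, and all 235 of those with 50 to 99.

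**Figure D3:**
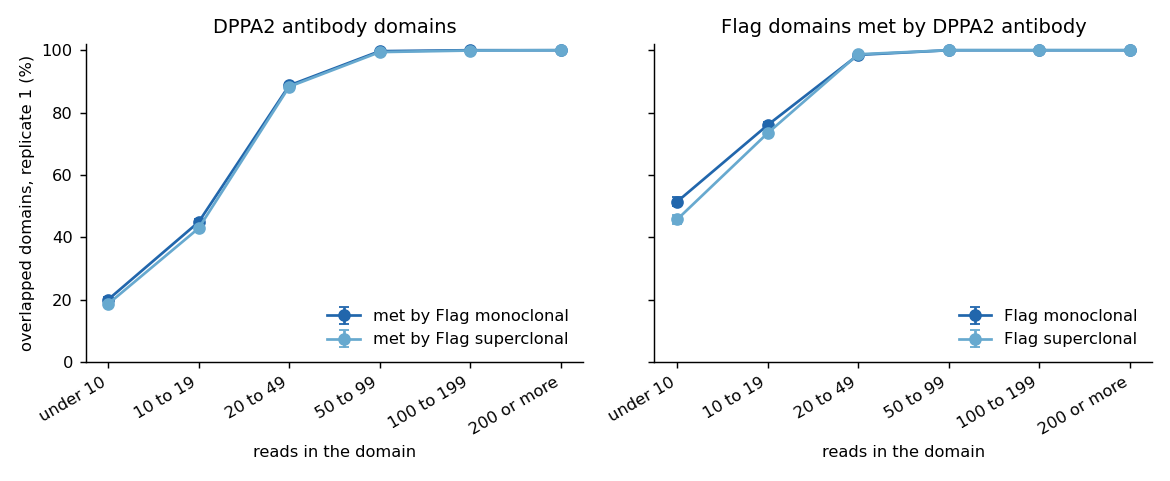
Share (%) of replicate 1 domains overlapped by the other reagent, by reads in the domain, with 95% Clopper-Pearson intervals. On the left, DPPA2 antibody domains met by each Flag antibody go up with the read class, 20% and 18.6% under 10 reads and 99.7% and 99.4% at 50 to 99 reads. On the right, Flag domains met by the DPPA2 antibody start at 51.4% and 45.7%.

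Read density at shared sites was most alike between the first replicates of different reagents. Across 6758 merged sites with a domain in each of the 4 libraries concerned, the density of DPPA2 antibody replicate 1 had a Spearman correlation of 0.87 with Flag superclonal replicate 1 and of 0.47 with its own replicate 2. Between the second replicates of both antibodies the correlation was 0.36, and between both Flag superclonal replicates 0.40. Across 1192 sites shared with Flag monoclonal, the correlation was 0.91 between the first replicates, 0.60 between the DPPA2 antibody replicates and 0.26 between the Flag monoclonal replicates. Between the second replicates of the DPPA2 antibody and Flag monoclonal it was 0.28. The first replicates of different reagents were thus closer than both replicates of one reagent, and the second replicates were less alike than both DPPA2 antibody replicates. These correlations run across sites, which are not independent replicates, in libraries of the same cells, and low read counts widen the spread of replicate 2.

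**Figure D4:**
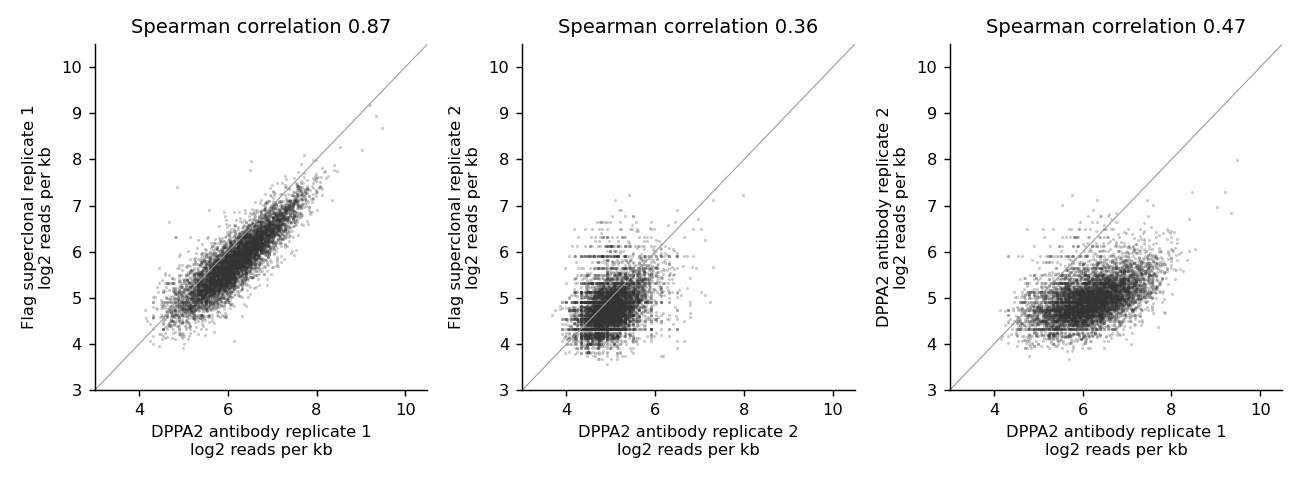
Density in log2 reads per kb at the 6758 sites with a domain in both libraries of the DPPA2 antibody and of Flag superclonal, 1 point per site, with the line of equality. The left panel sets replicate 1 of both antibodies together (Spearman 0.87), the middle replicate 2 (Spearman 0.36) and the right both DPPA2 antibody replicates (Spearman 0.47).

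Differences in density between reagents were tested site by site with edgeR's quasi-likelihood test, with replicate number as a block and offsets for library and domain length. Against Flag superclonal, 1 site was higher (0.0148% of 6758 tested) and 2 sites were lower (0.0296%) with the DPPA2 antibody at an adjusted p below 0.05, and 539 sites had an unadjusted p below 0.05. The median log2 fold was 0.0118, 99.8% of sites lay within 2-fold and the median standard error was 0.241. Against Flag monoclonal, edgeR called 0 of 1192 sites (0% in either direction), with 57 at an unadjusted p below 0.05, and DESeq2 called 0 with 1 at an unadjusted p below 0.05. There the median log2 fold was 0.0042 and 99.7% of sites lay within 2-fold. In both comparisons, scaling the libraries on these same sites sets the median fold near 0, and the length offset absorbs differences in domain length. The medians and ranges therefore do not measure how alike the reagents were in strength. In data simulated from these libraries, the test recovered 78.8% of 2-fold changes against Flag superclonal and 65.6% against Flag monoclonal. It also made means of 7 and 9.8 false calls per run, beside 200 changed sites put into each run. The number of false calls depends on how many sites change, so these means cannot be set against the calls in the real data. Domain lengths were held fixed there, so the recovery need not apply where length changes with signal. A site needed a domain in every library to enter, so sites of one reagent only were not tested. The calls against Flag superclonal did not survive the fit without the block, which called 0 sites, nor DESeq2, which called 0 with 8 at an unadjusted p below 0.05, nor the omission of any 1 library (0 sites each).

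The site higher with the DPPA2 antibody lay near the end of chromosome 5 (chr5:11501-12600), 79568 bp from the nearest protein-coding TSS, that of PLEKHG4B. Its density was 354 and 158 reads per kb in the DPPA2 antibody libraries, against 216 and 51 in the Flag superclonal libraries (log2 fold 0.759 ± 0.174 SE, edgeR adjusted p = 0.0288). Each DPPA2 antibody library exceeded the Flag superclonal library of its number. The densities printed here are not scaled for library size, and in them the groups overlapped. After the library scaling of the fit, both DPPA2 antibody libraries lay above both Flag superclonal libraries. The site with the lowest p lay 614 bp from the TSS of PAFAH1B2 (chr11:117144901-117145900), a catalytic subunit of a platelet-activating factor acetylhydrolase. It had 28.9 and 16 reads per kb with the DPPA2 antibody, against 170 and 30 with Flag superclonal (log2 fold -2.34 ± 0.409 SE, edgeR adjusted p = 0.000195). The value of 170 rests on 17 reads in Flag superclonal replicate 1. DPPA2 antibody replicate 1 had 26 reads at this site, so the direction in replicate 1 rests on domain length. The last site (chr15:30195601-30196500) was nearest to GOLGA8T, at 60550 bp, a member of a family of near-identical golgin genes between which reads can be split. It had 47.5 and 22 reads per kb with the DPPA2 antibody, against 120 and 45 with Flag superclonal (log2 fold -1.57 ± 0.338 SE, edgeR adjusted p = 0.0173). Its reads numbered 38 and 11 with the DPPA2 antibody, against 24 and 9 with Flag superclonal. The lower density there thus rests on the longer DPPA2 antibody domains. Without the length offset, edgeR called 0 sites.

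Sites of one reagent only were narrow, weak and mostly away from promoters. The DPPA2 antibody sites in no Flag library had a median width of 600 bp, a median of 10 and 9 reads in replicates 1 and 2, and 14.7% of them lay at promoters (95% interval 11.2 to 18.7%). The Flag sites in no DPPA2 antibody library also had a median width of 600 bp, and 16.3% lay at promoters (10.2 to 24%). Of these 123 sites, 100 held a Flag superclonal site and 24 a Flag monoclonal site, with 1 counted in both. By contrast, the 1035 DPPA2 antibody sites found by all 3 antibodies had a median width of 2100 bp, medians of 215 and 53 DPPA2 antibody reads, and 76.8% at promoters (74.1 to 79.4%). All 11790 DPPA2 antibody sites together had 1400 bp and 64.3%. Since wide domains with many reads are more easily found again, width and reads belong to how these classes were made and are given as a description.

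Base composition did not enter the classes directly, and the CpG ratio was ordered like the share at promoters. Since the classes also differ in reads, width and share at promoters, and sites of like read count were not compared, this too is a description. The median ratio of observed to expected CpG was 0.33 at sites of the DPPA2 antibody only and 0.354 at sites of Flag only, against 0.742 at sites found by all 3 antibodies. Median GC content was 56% at sites of the DPPA2 antibody only, 50.2% at sites of Flag only and 61% at sites of all 3. For reference, the median promoter window of all genes had a GC content of 52.8% and a CpG ratio of 0.566. These windows (TSS ± 1500 bp) are wider than the median site of each class.

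**Figure D5:**
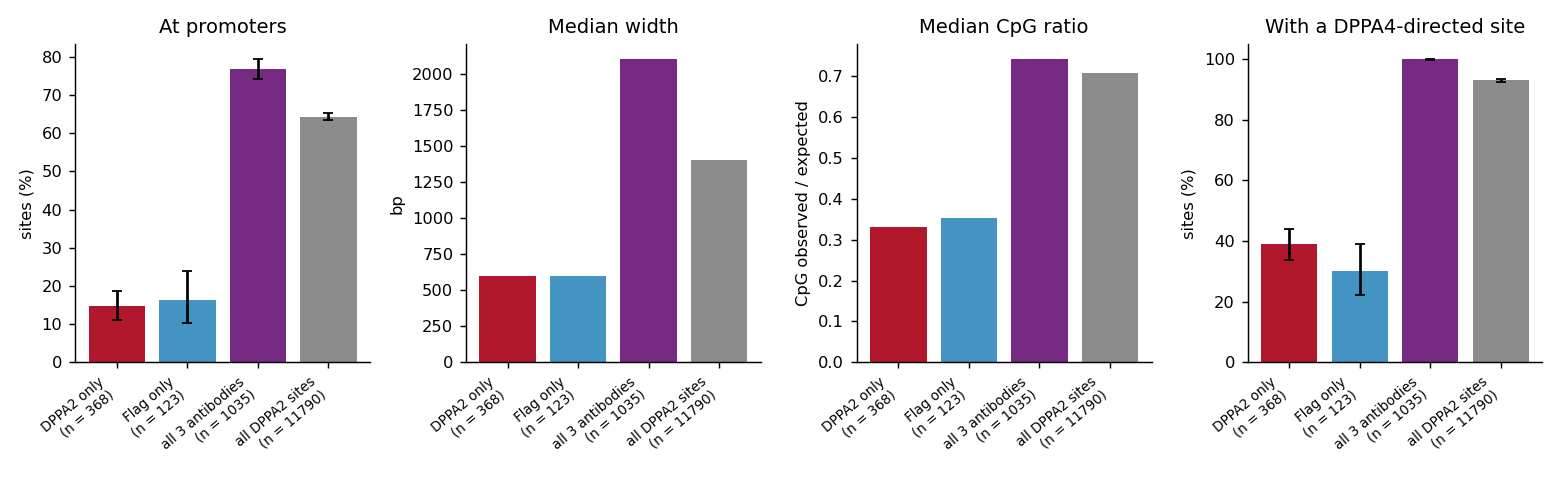
Share at promoters (%), median width (bp), median CpG observed over expected and share with a DPPA4-directed site (%) for DPPA2 antibody only sites (n = 368), Flag only sites (n = 123), sites of all 3 antibodies (n = 1035) and all DPPA2 antibody sites (n = 11790), with 95% Clopper-Pearson intervals on the shares. Both one-reagent classes lie far below the other bars in each panel.

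The DPPA4-directed libraries of the same cells, from the V5 tag antibody and 2 DPPA4 antibodies, gave a readout that the classes did not use. The V5 antibody is from mouse, like the DPPA2 antibody and Flag monoclonal, and both DPPA4 antibodies are from rabbit, like Flag superclonal. An IgG control shared within a species can tie these lists to the classes, so the readout is not fully independent. A site of any of these antibodies touched 38.9% of the DPPA2 antibody only sites (95% interval 33.9 to 44%) and 30.1% of the Flag only sites (22.1 to 39%), intervals that overlap. It touched 93.1% of all DPPA2 antibody sites and 100% of the sites found by all 3 antibodies. By single antibody, V5 sites touched 34% of the DPPA2 antibody only sites and the N-terminal DPPA4 and ab154642 antibodies 9.24% each. The same antibodies touched 14.6%, 13.8% and 15.4% of the Flag only sites. A domain in at least 1 of the 6 DPPA4-directed libraries, without the demand for both replicates, was present at 90.2% of DPPA2 antibody only and 78.9% of Flag only sites. V5 replicate 1, at 42537 domains the longest list, touched 78.3% and 45.5% of them. In H661, another lung cancer line, with endogenous DPPA2, domains of the DPPA2 antibody touched 40.5% of DPPA2 antibody only sites, 21.1% of Flag only sites and 90.8% of the sites found by all 3 antibodies.

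Most DPPA2 antibody sites were met by more than 1 Flag library. Of the 11790 sites, 597 touched 1 Flag library, 3950 touched 2, 5858 touched 3 and 1017 touched all 4. Flag monoclonal replicate 1 touched 94.1% of them and Flag superclonal replicate 1 touched 93.4%, while the second replicates touched 10.1% and 58.1%. Sites found by all 3 antibodies needed a domain in Flag monoclonal replicate 2, the library that touched the fewest. With lists of equal length, Flag monoclonal overlapped 19.2% of DPPA2 antibody sites, against 44.1% for Flag superclonal. The reason for its low share was not tested. Without Flag monoclonal replicate 2, 3.18% of DPPA2 antibody sites touched no Flag library.

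Within replicate 1 alone, 10639 of 34105 DPPA2 antibody domains (31.2%) touched neither Flag library of that number. They had a median of 8 reads and 300 bp, 15.6% lay at promoters, and 4.6% touched a domain of DPPA2 antibody replicate 2. The 23466 domains that touched a Flag library had a median of 34 reads and 900 bp, 52.8% lay at promoters, and 49.8% touched replicate 2. Domains seen by one reagent were thus seldom found again by the same reagent. Flag domains of replicate 1 absent from DPPA2 antibody replicate 1 had a median of 9 reads for each Flag antibody. Of these, 1.26% (Flag monoclonal) and 3.01% (Flag superclonal) touched their own replicate 2. Of the Flag domains present in DPPA2 antibody replicate 1, 6.04% and 39.8% did. The Flag monoclonal shares were thus low in both groups.

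Of 19970 promoters, 8406 (42.1%) had a domain in both DPPA2 antibody libraries, 1014 (5.08%) in both Flag monoclonal libraries and 6642 (33.3%) in both Flag superclonal libraries. In the first replicates, 11264 promoters (56.4%) had a domain with all 3 antibodies, 530 (2.65%) with the DPPA2 antibody and neither Flag antibody, and 57 (0.285%) with both Flag antibodies and not the DPPA2 antibody. A domain in all 6 libraries was found at 859 promoters (4.3%). In contrast, 22 promoters (0.11%) had a domain in both DPPA2 antibody libraries and in no Flag library, and 13 (0.0651%) in both libraries of a Flag antibody and in no DPPA2 antibody library. All 22 and all 13 had a domain in at least 1 of the 6 DPPA4-directed libraries, as did 8402 of the 8406 promoters of both DPPA2 antibody libraries. A domain in all 6 of them was found at 0 of the 22 and 1 of the 13, against 5678 of the 8406 and 792 of the 859.

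The promoters named first are those with a domain in all 6 libraries and the best worst rank by density. The first was the shared promoter of PFDN6, a prefoldin subunit, and WDR46, a nucleolar protein, on chromosome 6. It had 241 and 77.5 reads per kb with the DPPA2 antibody, against 226 and 190 with Flag monoclonal and 252 and 96.2 with Flag superclonal. The value of 190 comes from 19 reads in 1 bin, and the first replicates of the 3 antibodies lay close together. FZD1, a receptor for Wnt ligands, had 224 and 84.3 reads per kb with the DPPA2 antibody, against 222 and 33.9 with Flag monoclonal and 164 and 67.4 with Flag superclonal. Its domain in DPPA2 antibody replicate 1 held 784 reads against 11 of IgG.

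SCAF8, which binds the C-terminal domain of RNA polymerase II, had 253 and 115 reads per kb with the DPPA2 antibody, against 232 and 32 with Flag monoclonal and 186 and 68.2 with Flag superclonal. ELMO2, which helps to activate Rac in cell engulfment and migration, had 280 and 77.3 with the DPPA2 antibody, against 182 and 31.8 with Flag monoclonal and 150 and 60.9 with Flag superclonal. ARID2, a subunit of the PBAF chromatin remodeller, had 245 and 66.9 with the DPPA2 antibody, against 274 and 38 with Flag monoclonal and 226 and 61.5 with Flag superclonal. At each of these promoters every second replicate was lower than every first replicate, with each antibody. The shared promoter of PSMB9, an immunoproteasome subunit, and TAP1, a peptide transporter of antigen presentation, had 181 and 70 reads per kb with the DPPA2 antibody, against 210 and 43.3 with Flag monoclonal and 158 and 66.2 with Flag superclonal. The promoter of the splicing factor SRSF1, which has its TSS in common with ENSG00000266086, had 178 and 68.9 with the DPPA2 antibody, against 189 and 40 with Flag monoclonal and 160 and 62 with Flag superclonal.

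The promoters found by the DPPA2 antibody alone had far fewer reads. ENSG00000270249 had 13 and 8 reads in DPPA2 antibody replicates 1 and 2 (65 and 40 reads per kb), and CCDC125 had 7 and 10 reads (70 and 25 reads per kb). The first lies inside RASA4, which has near-identical copies, so reads can be split there. FEV, an ETS factor of serotonergic neurons, had 147 and 12 reads, the 147 in a domain that reached into the promoter window and overlapped a Flag domain outside it. This was the only 1 of the 22 promoters with such an overlap. ALS2CL had 5 and 7 reads, SPATA7, needed in photoreceptors, 16 and 7, and SUCLG2, a subunit of mitochondrial succinyl-CoA ligase, 15 and 13. CTTNBP2, a cortactin-binding protein of neurons, had 20 and 12 reads, EPO, which encodes erythropoietin, 9 and 9, KIAA1522 6 and 8, and OSR1, a zinc finger factor of kidney development, 6 and 7. Apart from FEV, the counts of these named promoters lay between 5 and 20 reads, with 0 to 2 reads of IgG, in domains a few bins wide.

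The promoters found by Flag alone were equally weak. SEM1, a small subunit of the proteasome lid, had 25 reads in Flag monoclonal replicate 1 and 13 and 7 in the Flag superclonal libraries, and a domain in all 6 DPPA4-directed libraries. ZKSCAN4, a zinc finger protein, had 14 reads in Flag monoclonal replicate 1 and 25 and 6 in the Flag superclonal libraries. CFAP58, a protein of the sperm flagellum, had 17 and 6 reads with Flag superclonal, and the shared promoter of TUBA4A, an alpha-tubulin, and TUBA4B had 13 and 9. CCL27, a skin chemokine, had 134 and 8 reads with Flag monoclonal, the 134 in a domain that overlapped a DPPA2 antibody domain outside the window. GARIN2, with 29 reads in Flag monoclonal replicate 1 and 20 and 9 in the Flag superclonal libraries, also had such an overlap, so that 11 of the 13 remained without one. MUC12, a mucin, MLPH, which links melanosomes to a myosin motor, and ZNF629, a zinc finger protein, had between 6 and 18 reads in the libraries with a domain.

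In 9 of the 11 gene lists the DPPA2 antibody had most promoters with a domain in both replicates, then Flag superclonal, then Flag monoclonal, the exceptions being the cyclins and the immune cell markers. Promoters of Polycomb subunits, which write H2AK119ub and H3K27me3, had a domain in both DPPA2 antibody libraries at 21 of 31 genes, in both Flag superclonal libraries at 16 and in both Flag monoclonal libraries at 3. In replicate 1 the counts were 30, 30 and 31 of 31, so the antibodies differed little there. RNF2, the catalytic subunit of PRC1, had 55 and 21.2 reads per kb with the DPPA2 antibody, against 48 in Flag monoclonal replicate 1 and 48.8 and 20.9 with Flag superclonal. PCGF5 had a domain in Flag monoclonal replicate 1 alone, at 20 reads per kb. COMPASS subunits, which write H3K4 methylation, had a domain in both DPPA2 antibody libraries at 13 of 15 genes, in both Flag superclonal libraries at 10 and in both Flag monoclonal libraries at 1. KMT2B had 126 and 52.7 reads per kb with the DPPA2 antibody, against 116 in Flag monoclonal replicate 1 and 106 and 27.9 with Flag superclonal. All 15 had a domain in replicate 1 of each antibody. These counts stand beside 42.1%, 33.3% and 5.08% of all promoters for both libraries of the DPPA2 antibody, Flag superclonal and Flag monoclonal, and beside 62.8%, 58.9% and 59.4% for replicate 1 of each.

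Among developmental transcription factors, 18 of 30 promoters (60%) had a domain in both DPPA2 antibody libraries. Both Flag superclonal libraries had one at 16 (53.3%) and both Flag monoclonal libraries at 2 (6.67%). Over all promoters these shares were 42.1%, 33.3% and 5.08%. DLX2, a homeobox factor, had 91.7 and 35 reads per kb with the DPPA2 antibody, against 86.1 in Flag monoclonal replicate 1 and 81.8 and 33.1 with Flag superclonal, while PAX1 and PAX2 had no domain in any of the 6 libraries. Pluripotency genes had 7 of 20 (35%) with the DPPA2 antibody, 3 (15%) with Flag superclonal and 0 with Flag monoclonal, each below the share over all promoters. SOX2 had 52.7 and 37 reads per kb with the DPPA2 antibody, against 79.6 in Flag monoclonal replicate 1 and 55.7 and 35.6 with Flag superclonal, and NANOG had no domain. POU5F1, the core pluripotency factor, had a domain in replicate 1 of the DPPA2 antibody (23.3 reads per kb) and of Flag superclonal (25 reads per kb) and in no other library. Germline genes had 7 of 20 (35%) with the DPPA2 antibody, 4 (20%) with Flag superclonal and 2 (10%) with Flag monoclonal. SYCP2, of the synaptonemal complex, had 160 and 43.3 reads per kb with the DPPA2 antibody, against 137 in Flag monoclonal replicate 1 and 98.3 in Flag superclonal replicate 1, and DAZL and DDX4 had no domain.

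Housekeeping, signalling and cell cycle genes had domains with each antibody. Over all promoters, 42.1% had a domain in both DPPA2 antibody libraries, 33.3% in both Flag superclonal libraries and 5.08% in both Flag monoclonal libraries. In replicate 1 of each, in that order, the shares were 62.8%, 58.9% and 59.4%. Ribosomal protein promoters had a domain in both DPPA2 antibody libraries at 20 of 32 genes, in both Flag superclonal libraries at 18 and in both Flag monoclonal libraries at 0, and at all 32 in replicate 1 of each antibody. For the proteasome the counts were 22, 19 and 2 of 31, for Wnt signalling 20, 13 and 3 of 32, and for cyclins and their kinases 10, 11 and 1 of 15, given for the DPPA2 antibody, Flag superclonal and Flag monoclonal. Cyclins were thus found at 1 more promoter by Flag superclonal than by the DPPA2 antibody. PSMB1, a proteasome core subunit, had domains in all 6 libraries, with 132 and 49.6 reads per kb with the DPPA2 antibody, against 176 and 46.7 with Flag monoclonal and 149 and 60 with Flag superclonal. CCNE2, a G1/S cyclin, had 142 and 46.2 with the DPPA2 antibody, against 130 in Flag monoclonal replicate 1 and 97.8 and 36.2 with Flag superclonal. Among 20 immune cell markers, both DPPA2 antibody libraries had 0, both Flag superclonal libraries 1 (CD68) and both Flag monoclonal libraries 0, and PTPRC, the pan-leukocyte marker, had no domain. Among 16 lung cell markers the counts were 4 (25%), 2 (12.5%) and 0. NKX2-1, the lung lineage factor, was found by both DPPA2 antibody and both Flag superclonal libraries. The surfactant gene SFTPC had no domain. No gene of these lists was among the 22 or the 13 promoters of one reagent. Those sets are 0.11% and 0.0651% of all promoters, so hardly any member of lists this short would be expected there.

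The introduced cDNAs could add reads at the coding exons of their own genes. DPPA2 antibody replicate 1 had a domain over DPPA2 coding exon 4 with 8 reads against 1 of IgG, and one over DPPA4 coding exon 6 with 5 against 0. Flag superclonal replicate 1 had a domain over DPPA2 coding exon 3 with 6 reads against 1, and one over DPPA4 coding exon 6 with 6 against 1. No Flag monoclonal library and no second replicate had a domain over either gene body. Coding sequence makes up 894 of 22730 bases of DPPA2 and 912 of 11403 bases of DPPA4, and every domain over the gene bodies lay over coding exons. These few domains held 5 to 8 reads each, and whether the reads came from the cDNAs was not tested. At the promoter of PGK1, a glycolytic enzyme whose promoter name is in the vector, the DPPA2 antibody had 145 and 13 reads, Flag monoclonal replicate 1 had 146, and Flag superclonal replicate 1 had 109. Reads from the chromosome and from the vector cannot be told apart there.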

How the data were processed

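For the CUT&RUN libraries the authors used Trim Galore 0.6.6, BWA 0.7.13 against hg38, SAMtools 1.9 and Picard 2.6.0 to mark duplicates, by the submitters' processing notes. They called regions for each library, without pooling replicates, against an IgG library. EPIC2 options for CUT&RUN are not given in the sources used here. MACS2 (2.27.1 in the processing notes) called narrow peaks.

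The deposited EPIC2 files hold raw counts of library and IgG reads per domain, the log2 fold over IgG scaled by library size, and the authors' p-value and FDR. Their deposited score is the log2 fold times 100. The deposited MACS2 files hold fold enrichment (a ratio), −log10 p and q values and an integer score.

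Domains with FDR below 0.05 and log2 fold above 1 (peaks: fold above 2), the limits of the study, were kept on autosomes and chromosome X. The study's blacklist was not applied. Replicates were merged at an overlap of 25% of the shorter region. Promoters came from GENCODE 44. Counts summed per merged site were tested with edgeR 4.0.16 in R 4.3.3 (quasi-likelihood, TMM on length-scaled counts, replicate number as a block as in the study's own model, Benjamini-Hochberg adjustment), with DESeq2 1.42.0 as an alternative. Only 2 pairs exist and the labels do not say that a number marks a batch. Deviations of same-numbered libraries from the group means correlated at 0.511 (Flag superclonal) and 0.572 (Flag monoclonal), and with 2 pairs the crossed pairing mirrors these values. The test was tried on simulated counts first, with 200 changed sites per run over 5 runs. Library values were compared by exact permutation (scipy 1.17.1). Intervals are Clopper-Pearson at 95% and cover counting error only.

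Named promoters were the 10 best by their worst rank in each of 3 classes (all 6 libraries, DPPA2 antibody alone, Flag alone), with the called sites, the genes of the lists and the genes of the vectors. Promoters on human chromosome 8 and windows with under 100 bases outside untranslated regions gave no sequence. Alternatives were the caller, the fold limit, the overlap, equal list lengths, scaling, the block, a minimum of 20 reads, and each library left out. The members and lists were chosen with earlier results of these data known.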

Additional observations from a re-analysis of the deposited data

Results flagged for a closer look

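Flag monoclonal replicate 2 stood apart from the other 3 Flag libraries in 3 of 7 measures tested by Dixon's criterion, which flags about 1 in 20 groups by chance. Its share of domains at promoters was 20.3%, its domains had a median GC content of 47%, and their median ratio of observed to expected CpG was 0.269. In the other Flag libraries these values were 48.2 to 53.5%, 58.5 to 60% and 0.601 to 0.649. The library also had the fewest domains (4904) and the fewest reads in domains (48262), and the part of either in these values was not tested.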

How the results depend on the processing

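The alternatives gave 63 values on the same side or within the spread of the replicates, 25 that moved beyond it, 7 that lost all calls and 3 that changed sign. Of the DPPA2 antibody sites, the share overlapped by Flag superclonal was 41.4% with MACS2 peaks, 41% with log2 fold above 2, 44.1% with lists of equal length, and 40.9 to 59.3% by single replicate. The reverse share was 49.6%, 62.9%, 46.3%, and 56.8 to 80.9%. With lists of equal length (24177 and 4904 domains) these 2 shares were close, while those with Flag monoclonal were 19.2% and, in reverse, 58.3%. The share overlapped by Flag monoclonal was 7.11 to 60.3% by single replicate and 93.9% without Flag monoclonal replicate 2, and the reverse share 26.8 to 85.1% and 50.1%. By single replicate, 31.2 to 56.9% of DPPA2 antibody domains touched no Flag domain and 24.7 to 53.2% of Flag domains no DPPA2 antibody domain, while leaving out Flag monoclonal replicate 2 gave 3.18% of DPPA2 antibody sites.

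The share of DPPA2 antibody only sites with a DPPA4-directed site was 0% with MACS2 (4 sites), 39.9% without the fold limit, 36.2% above log2 fold 2, 35.6% and 39.5% at overlaps of 50% and 1 bp, and 63.4 to 63.8% by single replicate. For Flag only sites it was 48.9% above log2 fold 2 and 32.7 to 58.1% by single replicate. The promoter difference was -3.92 points without the Flag monoclonal antibody, -4.06 without its replicate 2, and -8.58 to 15.8 by single replicate.

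Against Flag superclonal, edgeR called 3 sites with the replicate block and 0 without it, 0 without the length offset, 3 with DESeq2 size factors (the same 3) and 2 of 2440 sites with at least 20 reads. DESeq2 called 0, and each library left out gave 0 to 0. Against Flag monoclonal each setting, the replicate block included, gave 0. The second replicates, above all Flag monoclonal replicate 2, had fewer domains and fewer reads in them, and every list that asks for both replicates depends on these libraries. The part of read counts in this was not tested.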

Other observations

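Domains found in none of the other 11 H1299 libraries with doxycycline were a measure of what each library held for itself. They made up 10.4% and 11.9% of the DPPA2 antibody domains, against 3.79% and 62.2% for Flag monoclonal and 6.94% and 17.5% for Flag superclonal. They had medians of 7 to 9 reads in each library, and 1.28 to 9.06% of them lay at promoters.

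Chromosome 8 held 17.6% of such domains of DPPA2 antibody replicate 2, against 22.6% for Flag monoclonal replicate 2 and 18.8% for Flag superclonal replicate 2. Of all domains of these libraries it held 6.39%, against 17.4% and 7.57%. In the first replicates the share on chromosome 8 was 4.65% with the DPPA2 antibody, 8.84% with Flag monoclonal and 10.1% with Flag superclonal. Chromosome 6 held 14.3% of such domains of DPPA2 antibody replicate 2, against 15% for Flag monoclonal replicate 2 and 14.2% for Flag superclonal replicate 2, beside 7.77%, 13.9% and 8.54% of all their domains. In Flag monoclonal replicate 2 such domains made up 62.2% of the whole list, so its 2 sets of shares are close in part by construction.

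No site passed the correction against Flag monoclonal (smallest edgeR adjusted p = 0.256). The site with the lowest p, nearest to CCDC200, had 710 and 253 reads per kb with the DPPA2 antibody, against 442 and 65 with Flag monoclonal (log2 fold 0.827 ± 0.241 SE, higher in 2 of 2 pairs).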
